A study of Mus musculus with 4 samples.

Results

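Cd8-negative T cells are droplets that carried T cell receptor transcripts and no Cd8 transcript. They were chosen by their measured UMIs, as cell barcodes with at least 1000 UMIs (unique molecular identifiers, each counting 1 captured RNA molecule) and at most 20% mitochondrial UMIs. They also had under 0.3% melanocytic UMIs (Dct, Pmel, Mlana and Tyrp1), at least 2 UMIs of the receptor complex (Cd3d, Cd3e, Cd3g, Trac, Trbc1 and Trbc2) and none of Cd8a or Cd8b1. Barcodes with any UMI of the natural killer genes Ncr1 or Klrb1c, or with more than 1 UMI of C1qa, C1qb and C1qc together or of Cd79a, were left out. The rule gave 62 Cd8-negative T cells among 10214 barcodes that passed the UMI and mitochondrial limits, a share of 0.607% with a 95% Clopper-Pearson interval of 0.466% to 0.778%.

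Most T cells without CD8 are CD4 T cells, whose receptor reads peptides on MHC class II molecules and which help other immune cells. Regulatory T cells are a subset that depends on the transcription factor Foxp3, carries inhibitory and costimulatory receptors such as Ctla4 and Tnfrsf4, and restrains immune responses in tumours. Naive and resting memory T cells instead express Ccr7, Lef1, Tcf7 and the interleukin-7 receptor gene Il7r, which serve recirculation and survival.

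The series compared tumours of C57Bl6 mice aged 6-8 weeks that had been treated with nanocapsules with tumours labelled Control, and its title places enzyme-loaded capsules in the setting of T cell responses and immunotherapy of cancer. Single-cell RNA was read in 2 Nanocapsule and 2 Control libraries (n = 2 per group throughout), and nothing in the labels says whether they came from separate animals, so p-values measure the spread between these libraries. The labels give cancer cells of a tumour as the cell type, and no sort or gate. The libraries held 98943390 to 140491491 UMIs in all. Between 3 and 14 passing barcodes were shared by any pair of libraries, no Cd8-negative T cell barcode was one in a second library, and 1 of Control 2 was also a passing barcode of Nanocapsule 1.

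The cells were spread unevenly. Nanocapsule 1 held 15 Cd8-negative T cells and Nanocapsule 2 held 10, while Control 1 held 9 and Control 2 held 28. Their summed UMIs were 99381 and 114397 in the Nanocapsule libraries, against 21322 and 108447 in the Control libraries. Control 1 was the shallowest and Control 2 had the most cells.

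The cells differed in depth between the groups. The median was 4683 and 7296 UMIs per cell in Nanocapsule 1 and 2, against 2376 and 3894 UMIs per cell in Control 1 and 2, so that both Nanocapsule medians were above both Control medians. A total above 20000 UMIs occurred in 2 cells of Nanocapsule 1 and 1 cell of Nanocapsule 2, and in no Control cell. These 3 barcodes held 47.1% of the Cd8-negative T cell UMIs of Nanocapsule 1 and 29.0% of those of Nanocapsule 2.

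**Figure D1:**
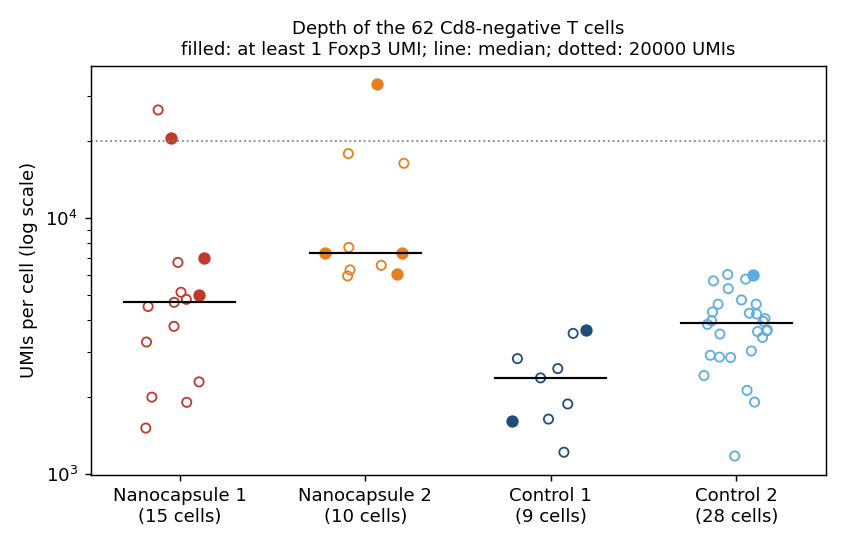
UMIs per cell (log scale) of the 62 Cd8-negative T cells by library, with filled points for cells with at least 1 Foxp3 UMI, a line at each library's median and a dotted line at 20000 UMIs. The points above the dotted line all lie in the Nanocapsule libraries, and 2 of these 3 carried Foxp3.

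The 3 large barcodes were not alike. The one with 26364 UMIs in Nanocapsule 1 and the one with 33199 UMIs in Nanocapsule 2 carried 178 and 366 UMIs of proliferation genes such as Mki67 and Top2a. The one with 20413 UMIs in Nanocapsule 1 carried 38 receptor complex UMIs and 7 of Foxp3 together with 117 UMIs of Lyz2, 37 of Tyrobp, 33 of Fcer1g and 13 of Il1b, which are myeloid genes. Apart from it, the highest sum of 6 myeloid genes (Lyz2, Tyrobp, Fcer1g, Csf1r, Cd68 and Adgre1) in a Cd8-negative T cell was 16 UMIs, and 50 of the 62 cells had none. No doublet caller was run, and whether any barcode held more than 1 cell was not tested.

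The T cell label held for the markers that could be checked. Cd3e, the epsilon chain of the receptor complex, was detected in 59 cells and Trac, the alpha chain constant region, in 41, but both were used by the rule. Outside the rule, Ptprc, the pan-leukocyte gene CD45, was detected in 59 of the 62 cells and Lck, the kinase that starts receptor signalling, in 52. At the edge of the rule, no cell had exactly 2 receptor UMIs, whereas 7 barcodes with 1 receptor UMI met the other limits, and of these 0 carried Lck and 2 carried Ptprc. The 2 shallowest cells had 1178 and 1219 UMIs, and the 1 barcode between 500 and 1000 UMIs that met the other limits had 885.

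Some genes of other lineages were at 0 and others were present. Mrc1, Adgre1 and Ms4a7 of the macrophage list, Ms4a1 and Pax5 of the B cell list, S100a8 and S100a9 of the neutrophil list and Col3a1 and Pdgfra of the fibroblast list were all at 0 UMIs. Other members of these and further lists were detected: 22 cells carried a B cell list gene and 22 carried Ighm (50 UMIs), 40 carried a monocyte list gene, 31 a dendritic cell list gene and 11 a natural killer list gene. Several of these are also expressed by T cells, such as S100a4 and Ly6c2 of the monocyte list, found in 25 and 19 cells, and Bst2 of the dendritic cell list, found in 31. The macrophage list summed to 131 CPM (UMIs scaled to a common total over the summed cells) in Nanocapsule 1, 0 CPM in Nanocapsule 2, 0 CPM in Control 1 and 18.4 CPM in Control 2. In the same order, the monocyte list stood at 2697, 1311, 1079 and 1503 CPM, the dendritic cell list at 1298, 184, 46.9 and 562 CPM, the natural killer list at 805, 323, 0 and 175 CPM and the B cell list at 131, 192, 141 and 175 CPM. Nanocapsule 1 was the highest for all of these except the B cell list. Its barcode with 20413 UMIs held 13 of the 13 macrophage and 235 of the 268 monocyte list UMIs of that library. The same barcode held 77 of the 129 dendritic cell and 70 of the 80 natural killer list UMIs. The part of other cell types in the results was not tested. Genes of the gamma-delta T cell list were found in 3 cells, 1 in Nanocapsule 2 and 2 in Control 2. Trdc, the delta chain constant region, was found in the 2 cells of Control 2, with 4 UMIs.

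How often Cd8 would be missed at lower depth was measured in Cd8-positive T cells. The same rule with at least 1 Cd8 UMI gave 94 Cd8-positive T cells, with a median of 9 Cd8 UMIs. Thinned to 1000 UMIs, 24.1% of them would show no Cd8 UMI, and thinned to 4008 UMIs, the median of the Cd8-negative cells, 4.50% of the 74 deep enough would. These cells were selected for at least 1 Cd8 UMI, so cells whose Cd8 had already been missed are not counted and the values are lower limits.

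Cd8-negative cells made up a smaller share of T cells in both Nanocapsule libraries than in either Control library, but the design cannot reach a p below 0.33. They were 15 of 35 T cells (42.9%) in Nanocapsule 1 and 10 of 44 (22.7%) in Nanocapsule 2, against 9 of 16 (56.2%) in Control 1 and 28 of 61 (45.9%) in Control 2. The means were 32.8% ± 14.2 in Nanocapsule and 51.1% ± 7.32 in Control libraries (SD, n = 2 each; two-sided exact permutation p = 0.33). With the Cd8 genes read after thinning every cell to 1000 UMIs, the shares were 60.04% and 41.2% in Nanocapsule libraries against 62.6% and 58.3% in Control libraries (exact permutation p = 0.667), and the groups then overlapped.

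As a share of all passing barcodes, Cd8-negative T cells showed no separation. They were 0.592% in Nanocapsule 1 and 0.587% in Nanocapsule 2, against 0.225% in Control 1 and 1.42% in Control 2 (two-sided exact permutation p = 1.0). Both Nanocapsule libraries lay between the 2 Control libraries. Without Control 2, the direction was the reverse, with a log2 ratio of 1.39.

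Cd4, the coreceptor for MHC class II (ENSMUSG00000023274, chromosome 6 from 124864692 to 124888221, minus strand, GRCm38), was detected in 31 of the 62 cells. These were 6 of 15 and 5 of 10 in Nanocapsule 1 and 2, against 1 of 9 and 19 of 28 in Control 1 and 2. Its UMIs were 16 and 19 in the Nanocapsule libraries, against 1 and 38 in the Control libraries. Control 2 was the highest and Control 1 the lowest, so the groups overlapped. Thinned to 1000 UMIs per cell, the shares were 14.8% and 11.7% in Nanocapsule libraries against 5.91% and 28.2% in Control libraries (two-sided exact permutation p = 1.0).

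Detection of Cd4 was compared with that in other cells. Cd4 was detected in 4 of the 94 Cd8-positive T cells, in 10 of 290 barcodes with at least 5 C1q UMIs and in 0 of 185 barcodes with at least 2 Cd79a UMIs, which allows a share of cells with a UMI of up to 1.62% at that depth and does not limit the share expressing it. Median depths were 4008 UMIs in Cd8-negative T cells, 5910 in Cd8-positive T cells, 12087 in the C1q barcodes and 2301 in the Cd79a barcodes. Thinned to 1000 UMIs, Cd4 was expected in 19.1% of the Cd8-negative and 1.23% of the Cd8-positive T cells. At this depth a missing Cd4 UMI in the other 31 cells does not show that the gene was absent.

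Foxp3, the transcription factor that defines regulatory T cells (ENSMUSG00000039521, chromosome X from 7573644 to 7595245, plus strand), was detected in 10 of the 62 cells. These were 3 of 15 and 4 of 10 in Nanocapsule 1 and 2, against 2 of 9 and 1 of 28 in Control 1 and 2. The cells had 1, 7 and 7 Foxp3 UMIs in Nanocapsule 1 and 4, 10, 11 and 13 in Nanocapsule 2, against 1 and 1 in Control 1 and 2 in Control 2. Cells with many Foxp3 UMIs were thus found in the Nanocapsule libraries, whose cells were also deeper. Thinned to 1000 UMIs, the shares with Foxp3 were 7.71% and 24.2% in Nanocapsule libraries against 9.94% and 1.09% in Control libraries (two-sided exact permutation p = 0.667), and the groups overlapped.

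The Foxp3 signal was rare elsewhere. Foxp3 was detected in 3 of the 94 Cd8-positive T cells, in 1 of the 290 C1q barcodes and in 0 of the 185 Cd79a barcodes. Among 3493 barcodes with at least 1% melanocytic UMIs, 83 carried it at a median depth of 42777 UMIs, a share of 0.0382% once thinned to 1000 UMIs, against 7.71% in Cd8-negative T cells.

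Genes of naive-like T cells were taken singly. Lef1, a transcription factor of naive T cells, was detected in 36 of the 62 cells, with 23 and 8 UMIs in Nanocapsule 1 and 2, against 9 and 35 in Control 1 and 2. Thinned to 1000 UMIs per cell, it was expected in 26.2% and 7.36% of Nanocapsule cells against 28.7% and 28.5% of Control cells. Nanocapsule 2 was the lowest, and the other 3 libraries lay close together.

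Ccr7, the chemokine receptor that guides T cells to lymph nodes, was detected in 15 cells, and was expected after thinning in 13.7% and 1.30% of Nanocapsule cells against 14.4% and 11.7% of Control cells. Nanocapsule 2 was again the lowest and Nanocapsule 1 lay between the Control libraries. Ccr7 is not particular to T cells, since 131 of the 185 Cd79a barcodes carried it. Lef1 was found in 7 of the 185 Cd79a barcodes and in 0 of the 290 C1q barcodes, which allows a share of cells with a UMI of up to 1.03%.

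**Figure D2:**
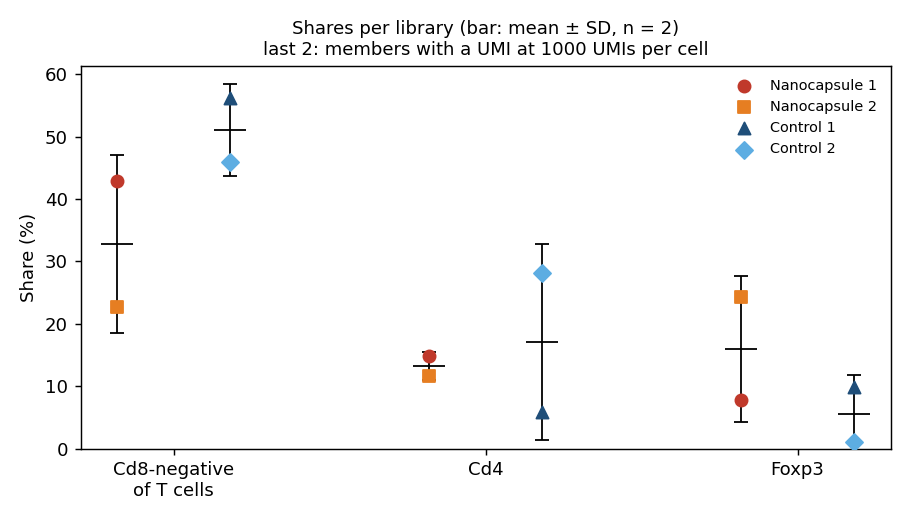
Share (%) per library of T cells that were Cd8-negative, and of Cd8-negative T cells with a UMI of Cd4 or of Foxp3 at 1000 UMIs per cell, with mean and SD of the 2 Nanocapsule libraries left of those of the 2 Control libraries. The Nanocapsule points lie below both Control points for the first share only, at 42.9% and 22.7% against 56.2% and 45.9%.

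The states overlapped in part. Of the 10 Foxp3-detected cells, 6 carried Cd4. Among the 52 without Foxp3, 25 carried Cd4 and 27 carried neither gene. Tcf7, a transcription factor of naive and memory T cells, was found in 20 of the 25 and 19 of the 27, and Lef1 in 15 and 16. Il7r was found in 18 of the 25 cells with Cd4 and in 10 of the 27 with neither gene.

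Genes linked to helper T cell subsets were found at differing frequencies. The type 1 helper list had a UMI in 48 of the 62 cells, the follicular helper list in 47, the type 2 helper list in 34 and the type 17 helper list in 28. Tbx21, the T-bet gene of type 1 helper cells, was found in 14 cells, Cxcr3, a chemokine receptor of type 1 helper cells, in 29, and Gata3, which directs type 2 helper cells, in 17. Rora, a nuclear receptor of type 17 helper cells that other T cells also use, was found in 20 cells, and Il17a, the interleukin-17 gene, in 1. Cd40lg, the CD40 ligand through which helper cells activate other cells, was found in 15 cells, with 1 and 0 UMIs in Nanocapsule 1 and 2 against 3 and 21 in Control 1 and 2. Its groups did not overlap, and its edgeR log2 fold change between treatments was -4.87 ± 1.25 (SE) with an adjusted p of 0.0563, which misses the threshold of 0.05.

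Foxp3-detected cells carried other regulatory T cell genes together. Ctla4, an inhibitory receptor, Tnfrsf18, the costimulatory receptor GITR, and Tnfrsf4, the costimulatory receptor OX40, were each found in 10 of the 10 Foxp3-detected cells, against 10, 23 and 7 of the 52 Foxp3-undetected cells. Ikzf2, the transcription factor Helios, was found in 9 of the 10 against 10 of the 52, and Il2ra, the interleukin-2 receptor alpha chain, in 7 against 4. The naive genes were distributed the other way, with Tcf7 in 0 of the 10 Foxp3-detected and 39 of the 52 Foxp3-undetected cells, and Ccr7 in 0 against 15. Foxp3-detected cells were deeper, at a median of 6520 against 3810 UMIs.

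Thinned to 1000 UMIs per cell and pooled over libraries, the contrasts were still present. Nanocapsule 1, Nanocapsule 2, Control 1 and Control 2 gave 3, 4, 2 and 1 Foxp3-detected cells, against 12, 6, 7 and 27 Foxp3-undetected cells. Thinning evens the depth but not this mix of libraries, whose part in the pooled counts and shares was not tested. Ctla4 was expected in 70.6% of Foxp3-detected against 10.1% of Foxp3-undetected cells, Ikzf2 in 67.7% against 10.6% and Tnfrsf4 in 55.9% against 6.04%. S100a6, a calcium-binding protein, was expected in 82.5% against 26.7%, and Gzmb, the protease granzyme B, in 51.5% against 6.17%. Lef1 was expected in 9.01% against 27.6%, and Satb1, a chromatin organiser of T cells, in 1.37% against 37.4%.

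**Figure D3:**
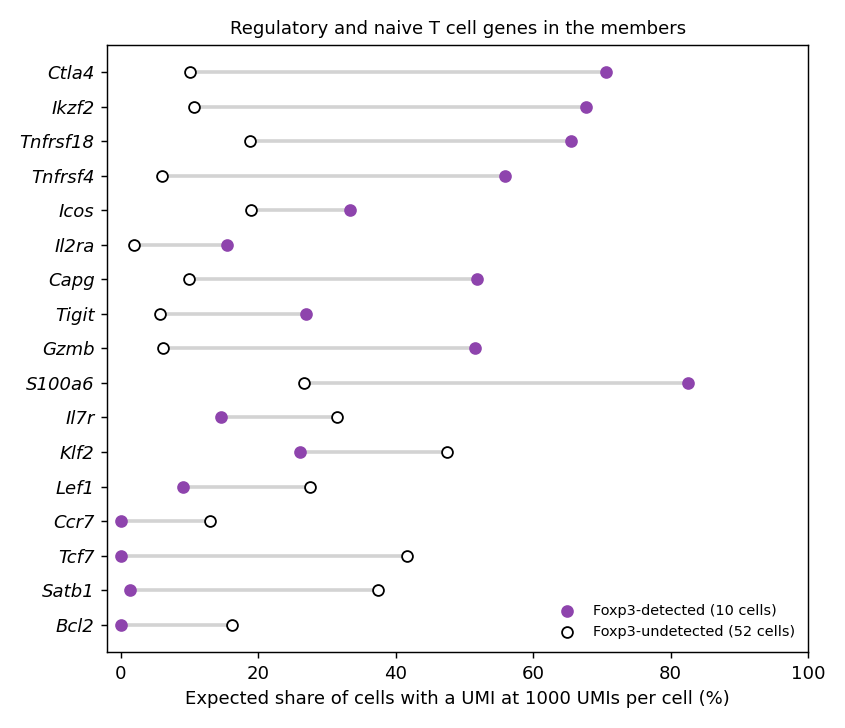
Expected share of cells (%) with at least 1 UMI of each gene at 1000 UMIs per cell, in 10 Foxp3-detected (filled) and 52 Foxp3-undetected (open) Cd8-negative T cells. The upper 10 genes lie further right in Foxp3-detected cells, from Il2ra at 15.5% against 1.88% to S100a6 at 82.5% against 26.7%, and the lower 7 lie further left, with Tcf7, Ccr7 and Bcl2 at 0%. Cells were pooled over libraries, which contributed unevenly to the states. Il7r, among the lower 7, also differed by library. It was at 12.2% and 9.57% in Nanocapsule 1 and 2 against 39.0% and 40.9% in Control 1 and 2. The part of library in these shares was not tested.

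For a test over libraries, UMIs were summed per library and state and fitted with edgeR with the library as a block. Nanocapsule 1 and 2 were the libraries with at least 3 cells in both states, which left 1 residual degree of freedom. Of 942 genes tested, 46 passed an adjusted p of 0.05 (4.88%), with 27 higher (2.87%) and 19 lower (2.02%) in Foxp3-detected cells and 159 at an unadjusted p under 0.05 (16.9%). Foxp3 itself, which made the split, is among the 27. Over all genes tested, 24.5% were higher and 21.4% lower with no overlap between the states. The regulatory T cell list held 26 genes, of which 10 other than Foxp3 were tested. All 10 had a fold above 0, against 52.9% of all genes tested, with a median log2 fold of 1.26 against 0.06 over all genes. The low-count filter can admit a gene through the Foxp3-detected cells alone, so these directions can be partly set by it. Of the 10 genes, Tnfrsf4, Tnfrsf18 and Capg passed.

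Tnfrsf4 had 29 and 51 UMIs in the Foxp3-detected cells of Nanocapsule 1 and 2, against 26 and 1 in the Foxp3-undetected cells, a log2 fold change of 2.54 ± 0.67 (SE; edgeR adjusted p = 0.0286). Its share of UMIs was higher in the Foxp3-detected cells of both libraries. Tnfrsf18 had 31 and 54 UMIs against 18 and 16, a log2 fold change of 1.83 ± 0.50 (edgeR adjusted p = 0.00961). Capg, an actin-capping protein, had 12 and 59 UMIs against 16 and 3, a log2 fold change of 2.25 ± 0.62 (edgeR adjusted p = 0.0237). In Foxp3-detected cells, the barcode with myeloid genes held 19 of the 29 Tnfrsf4, 15 of the 31 Tnfrsf18 and 5 of the 12 Capg UMIs of Nanocapsule 1. The large barcode of Nanocapsule 2 held 37 of the 51, 31 of the 54 and 33 of the 59. In Foxp3-undetected cells of Nanocapsule 1, the barcode with 26364 UMIs held 24 of the 26, 10 of the 18 and 16 of the 16. Ctla4 and Ikzf2 did not pass in this fit, with log2 folds of 1.22 ± 0.58 (edgeR adjusted p = 0.264) and 1.17 ± 0.43 (edgeR adjusted p = 0.0925). The barcode with 26364 UMIs, which had no Foxp3 UMI, held 45 Ctla4, 14 Il2ra and 8 Ikzf2 UMIs. No other Foxp3-undetected cell of Nanocapsule 1 carried Ctla4, so its level in that state and library came from 1 barcode.

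Effector and checkpoint genes were also among those that rose. Tigit, an inhibitory receptor, had 7 and 50 UMIs in Foxp3-detected cells of Nanocapsule 1 and 2, against 7 and 4 in Foxp3-undetected cells. Gzmb had 8 and 186 UMIs against 9 and 38. The chemokine gene Ccl4 had 13 and 43 UMIs against 0 and 3, and the transcription factor gene Cebpb had 50 and 11 against 4 and 6. Gzmb overlapped between the states across libraries, and the others did not.

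Much of this came from single barcodes. The large barcode of Nanocapsule 1 with myeloid genes held 44 of the 50 Cebpb UMIs, 22 of the 24 Cst3 UMIs, 16 of the 18 Ctsz UMIs and 11 of the 13 Ccl4 UMIs of the Foxp3-detected cells of that library. The large barcode of Nanocapsule 2 held 43 of the 43 Ccl4 UMIs and 37 of the 50 Tigit UMIs there. Ddit4, a stress response gene, was less concentrated, with 3 of the 22 Cd8-negative T cell UMIs of Nanocapsule 1 in the barcode with myeloid genes and 2 of the 12 of Nanocapsule 2 in its large barcode. S100a6 had 32 of 88 and 47 of 138 there. Without barcodes with 10 or more myeloid UMIs, 10 genes passed, of which 6 were among the 46, and with DESeq2 2 genes passed (30 unadjusted).

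The naive and memory list held 19 genes, of which 7 were tested. Of these, 5 had a fold below 0 and 2 above, where 52.9% of all genes tested were above. Tcf7 and Satb1 passed as lower in Foxp3-detected cells, where 2.02% of all genes tested passed as lower. The low-count filter can admit a gene through the Foxp3-undetected cells alone, so these directions can be partly set by it. Tcf7 (ENSMUSG00000000782, chromosome 11 from 52252371 to 52283014, minus strand) had 0 and 0 UMIs in Foxp3-detected cells of Nanocapsule 1 and 2, against 39 and 11 in Foxp3-undetected cells. With 0 UMIs among 86264 against 50 among 127514, it was at least 11.3-fold lower, taking 3 UMIs over the group as the limit (edgeR adjusted p = 1.42e-06). Satb1 had 0 and 1 UMIs against 23 and 19, a log2 fold change of -4.62 ± 0.92 (edgeR adjusted p = 6.06e-05), and Themis, a gene of thymocyte selection, had 0 and 1 against 17 and 15.

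The ribosomal protein genes Rps2 and Rpl8 also fell, Rps2 with a log2 fold of -0.96 ± 0.20 (edgeR adjusted p = 0.000218) and Rpl8 with -0.93 ± 0.22 (edgeR adjusted p = 0.00149). Gm42418, a long noncoding RNA gene that overlaps ribosomal RNA sequence, fell by 2.04 on the log2 scale. It was the most abundant gene of the Cd8-negative T cells at 18310 CPM, and it stood at 90900 CPM in barcodes with at most 100 UMIs, which hold free RNA. Foxp3-detected cells were also deeper, and the part of free RNA in the difference was not tested.

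Between treatments, 13 of 1813 genes tested in Cd8-negative T cells passed an adjusted p of 0.05 (0.717%), 6 higher (0.331%) and 7 lower (0.386%) in Nanocapsule libraries, and 227 had an unadjusted p under 0.05 (12.5%). Higher were the costimulatory receptor gene Tnfrsf4, the chemokine gene Ccl4, the adhesion gene Alcam, the serine synthesis gene Phgdh, and Lgals1 and Ifitm2. Lower were the survival genes Il7r and Bcl2, the interferon-induced genes Ifit3 and Slfn5, and Ms4a4b, Emb and Dusp10. None of the 13 passed with DESeq2 (69 unadjusted), at a minimum of 2000 UMIs, or without Nanocapsule 1, Control 1 or Control 2, and 7 of them passed without Nanocapsule 2. Without Control 2, 9 other genes passed.

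The regulatory T cell list held 26 genes, of which 12 passed the filter on low counts, some of them through the Nanocapsule libraries where they were higher, so the direction of those is partly set by the filter. Of the 12 genes tested, 11 had a fold above 0, against 51.7% of all genes, with a median log2 fold of 1.26 against 0.02 over all genes, and 1 passed. That gene, Tnfrsf4, had 55 and 52 UMIs in Nanocapsule 1 and 2, against 4 and 8 in Control 1 and 2, or 763 and 584 normalised CPM against 237 and 99.4. All Nanocapsule values were above both Control values, with a log2 fold change of 2.34 ± 0.50 (edgeR adjusted p = 0.0322). The large barcodes held 24 and 19 of the 55 Tnfrsf4 UMIs of Nanocapsule 1 and 37 of the 52 of Nanocapsule 2. Foxp3 had 15 and 38 UMIs against 2 and 2, a log2 fold change of 2.85 ± 0.71 that misses the threshold (edgeR adjusted p = 0.0563).

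Ctla4 and Il2ra also missed the threshold. Ctla4 had 62 and 94 UMIs in Nanocapsule 1 and 2 against 7 and 24 in Control 1 and 2, a log2 fold change of 1.53 ± 0.39 (edgeR adjusted p = 0.0563). Il2ra had 17 and 14 UMIs against 1 and 1, a log2 fold change of 3.10 ± 0.91 (edgeR adjusted p = 0.0960). The large barcodes held 14 and 1 of the 17 Il2ra UMIs of Nanocapsule 1 and 6 of the 14 of Nanocapsule 2. Icos, a costimulatory receptor, was the member with a fold below 0, at -0.86 ± 0.47.

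The share of UMIs from Foxp3-detected cells moved with this list. These cells held 32.6% and 47.1% of the Cd8-negative T cell UMIs in Nanocapsule 1 and 2, against 24.6% and 5.54% in Control 1 and 2. Without Foxp3-detected cells, 12 genes passed, of which 3, Il7r, Lgals1 and Phgdh, were among the 13. Without barcodes over 20000 UMIs, 6 genes passed, none of them among the 13, and the list had 7 of 8 genes above 0 with a median of 0.61. Without Foxp3-detected cells it had 4 of 6 above 0 with a median of 0.97.

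The naive and memory list held 19 genes, of which 17 were tested. Of these, 16 had a fold below 0 and 1 above, where 51.7% of all genes were above. The median log2 fold was -1.42 against 0.02 over all genes. The low-count filter can admit a gene through the Control libraries alone, so these directions can be partly set by it. Il7r and Bcl2 passed, where 0.386% of all genes passed as lower. Il7r (ENSMUSG00000003882, chromosome 15 from 9505788 to 9530176, minus strand) had 12 and 13 UMIs in Nanocapsule 1 and 2, against 9 and 73 in Control 1 and 2, or 166 and 146 normalised CPM against 533 and 907. Both Nanocapsule levels were below both Control levels, with a log2 fold change of -2.30 ± 0.43 (edgeR adjusted p = 0.0163). It was detected in 5 of 15 and 3 of 10 cells, against 6 of 9 and 20 of 28, and after thinning in 12.2% and 9.57% against 39.0% and 40.9%.

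Il7r is also a gene of other cells, with a UMI in 120 of the 290 C1q barcodes. Bcl2, which protects cells from apoptosis, had 4 and 9 UMIs in Nanocapsule 1 and 2 against 7 and 34 in Control 1 and 2, a log2 fold change of -2.36 ± 0.51 (edgeR adjusted p = 0.0322). The 9 UMIs of Nanocapsule 2 came from 1 cell. Ccr7 had 8 and 1 UMIs against 5 and 25, a log2 fold change of -2.40 ± 0.63 that did not pass (edgeR adjusted p = 0.0583).

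Tcf7 did not separate the groups by cell. It had 39 and 11 UMIs in Nanocapsule 1 and 2 against 9 and 59 in Control 1 and 2, a log2 fold change of -1.04 ± 0.52 (edgeR adjusted p = 0.438). After thinning it was expected in 41.5% and 11.4% of Nanocapsule cells against 22.4% and 43.8% of Control cells, which overlap. Without barcodes over 20000 UMIs, 13 of 15 list genes had a fold below 0, with a median of -0.72, and none passed.

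Among the other genes that rose, Alcam, an adhesion molecule that binds CD6 on T cells (ENSMUSG00000022636, chromosome 16 from 52248996 to 52454074, minus strand), had 31 and 25 UMIs in Nanocapsule 1 and 2, against 0 and 2 in Control 1 and 2, a log2 fold change of 4.0 ± 0.75 (edgeR adjusted p = 0.0163). All 31 UMIs of Nanocapsule 1 were in 2 cells, both over 20000 UMIs. Ccl4 had 13 and 46 UMIs against 0 and 0 and was at least 11.9-fold higher with 3 UMIs over the group as the limit (edgeR adjusted p = 0.0163), from 2 cells in each Nanocapsule library. Ifitm2, an interferon-induced membrane protein gene, had 32 and 17 UMIs against 0 and 2, and 28 of the 32 lay in the barcode with myeloid genes.

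Lgals1, which encodes galectin-1, had 205 and 356 UMIs in Nanocapsule 1 and 2 against 27 and 89 in Control 1 and 2, or 2845 and 3998 normalised CPM against 1599 and 1105. It was found in 11 of 15 and 8 of 10 Nanocapsule cells, and its log2 fold change was 1.41 ± 0.32 (edgeR adjusted p = 0.0322), or 0.66 without barcodes over 20000 UMIs. The large barcodes held 120 and 44 of its 205 UMIs in Nanocapsule 1 and 171 of its 356 in Nanocapsule 2. Phgdh, the first enzyme of serine synthesis, had 18 and 21 UMIs against 1 and 1, in 6 and 4 Nanocapsule cells, with a log2 fold change of 3.42 ± 0.77 (edgeR adjusted p = 0.0322). The large barcodes held 11 and 3 of its 18 UMIs in Nanocapsule 1 and 5 of its 21 in Nanocapsule 2.

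**Figure D4:**
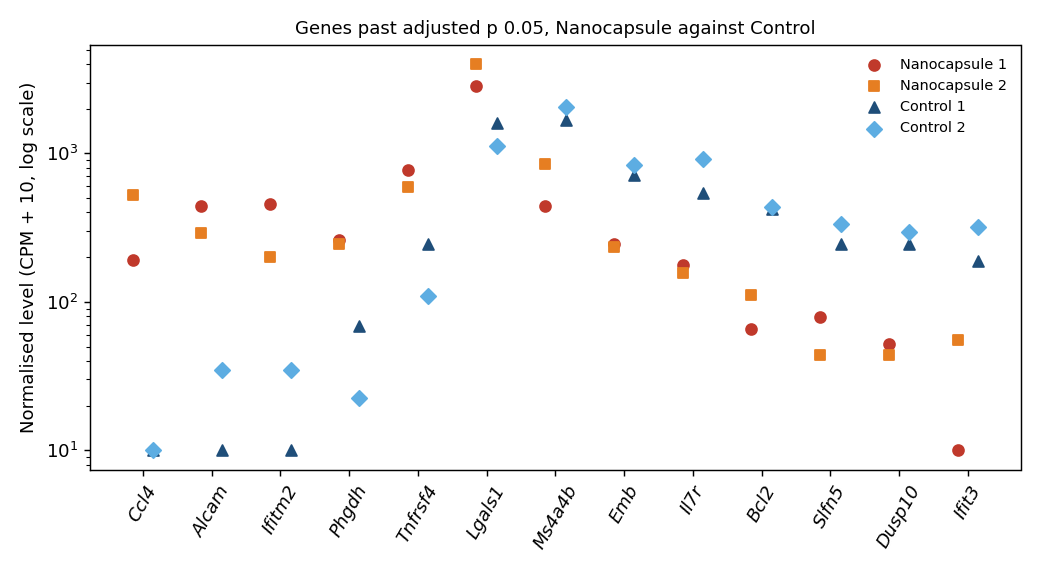
Normalised level (CPM plus 10, log scale) per library of the 13 genes past an adjusted p of 0.05 between treatments, with Nanocapsule points left of Control points. The groups do not overlap for any of the 13, as for 23.6% of all genes tested on the higher and 20.9% on the lower side, from Ccl4 with both Control libraries at 0 CPM to Ifit3 with Nanocapsule 1 at 0 CPM.

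The interferon gamma response list had 12 genes tested, 6 above and 6 below 0, and none passed. The type I interferon list held 22 genes, of which 10 were tested. Of these, 8 had a fold below 0 and 2 above, where 51.7% of all genes tested were above. The median log2 fold was -0.70 against 0.02 over all genes. Ifit3 passed, where 0.386% of all genes passed as lower. The low-count filter can admit a gene through the Control libraries alone, so these directions can be partly set by it. Ifit3, an antiviral effector, had 0 and 4 UMIs in Nanocapsule 1 and 2, against 3 and 25 in Control 1 and 2, a log2 fold change of -3.39 ± 0.80 (edgeR adjusted p = 0.0458). Isg15, a ubiquitin-like protein, had 25 and 9 UMIs against 8 and 105, a log2 fold change of -2.19 ± 0.52 (edgeR adjusted p = 0.0563). Without Control 2, 8 of 9 list genes had a fold above 0, with a median of 0.22 against 0.16 over all genes.

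Metabolic and cell cycle lists gave no called gene. Over all genes tested between treatments, 51.7% had a fold above 0, with a median log2 fold of 0.02. All 8 glycolysis genes tested had a fold above 0, with a median log2 fold of 1.03, and Ldha, which makes lactate from pyruvate, had 125 and 177 UMIs in Nanocapsule 1 and 2 against 23 and 55 in Control 1 and 2 (log2 fold 1.01 ± 0.35, edgeR adjusted p = 0.203). Free RNA was rich in these genes: the list stood at 5001 CPM in the Cd8-negative T cells and at 15360 CPM in barcodes with at most 100 UMIs, and its part in the difference was not tested. Of 10 proliferation genes tested, 9 had a fold above 0, with a median of 1.34. The glycolysis list held 15 genes and the proliferation list 18. The low-count filter can admit a gene through the Nanocapsule libraries alone, so these directions can be partly set by it. Without barcodes over 20000 UMIs, 2 proliferation genes were tested, 1 on each side of 0.

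Against Cd8-positive T cells of the same libraries, Cd8-negative T cells had lower cytotoxic genes. Of 1897 genes tested with the library as a block, 19 passed (1%), 7 higher (0.369%) and 12 lower (0.633%), with 175 at an unadjusted p under 0.05 (9.23%). The 12 include Cd8a and Cd8b1, which the rule used. Of 9 cytotoxic effector genes tested, 8 had a fold below 0, with a median log2 fold of -1.44, and Ccl5, Klrd1 and Nkg7 passed. The 10 regulatory T cell genes tested all had a fold above 0, against 50.2% of all genes, with a median of 0.61, and none passed. These were 10 of the 26 regulatory genes listed and 9 of the 16 cytotoxic ones. The low-count filter can admit a gene through 1 class alone, so the directions of both lists can be partly set by it.

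Ccl5, a chemokine of effector T cells (ENSMUSG00000035042, chromosome 11 from 83525778 to 83530518, minus strand), had 72, 84, 16 and 153 UMIs in the Cd8-negative T cells of Nanocapsule 1, Nanocapsule 2, Control 1 and Control 2, against 537, 2234, 231 and 1182 in the Cd8-positive T cells. It was lower in all 4 libraries, with a log2 fold change of -2.42 ± 0.15 (edgeR adjusted p = 4.44e-08). Nkg7, a cytotoxic granule protein, had 38, 163, 3 and 49 UMIs against 298, 1342, 80 and 270, a log2 fold change of -1.73 ± 0.27 (edgeR adjusted p = 0.00627). Klrd1, the natural killer receptor subunit CD94, had 9, 18, 2 and 7 UMIs against 81, 222, 10 and 65, a log2 fold change of -1.98 ± 0.29 (edgeR adjusted p = 0.00141).

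Of 5 exhaustion and checkpoint genes tested, 3 had a fold below 0 and Pdcd1 and Nr4a2 passed, whereas of 5 T cell activation genes tested, 4 had a fold above 0 and Nr4a2 alone passed. Among all genes tested against Cd8-positive T cells, 50.2% had a fold above 0 and 0.633% passed as lower. Pdcd1, the checkpoint receptor PD-1, had 7, 12, 0 and 3 UMIs in Cd8-negative T cells of the libraries in that order, against 29, 202, 7 and 19 in Cd8-positive T cells, a log2 fold change of -1.82 ± 0.37 (edgeR adjusted p = 0.0208). Nr4a2, a nuclear receptor induced by receptor signalling, fell by 2.57 on the log2 scale, and Ccl4 by 2.93. Thy1, Ly6c2, Dut and Fabp5 were the other genes that fell.

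Higher in Cd8-negative T cells were Ass1, Glrx, Cd5, Dusp1, Ly6a, Ly6e and Gm42418. Ass1, an enzyme of arginine synthesis, had 30, 16, 5 and 19 UMIs in Cd8-negative T cells, with libraries ordered as above, against 13, 24, 1 and 12 in Cd8-positive T cells, a log2 fold change of 1.72 ± 0.31 (edgeR adjusted p = 0.00818). Cd5, a restrainer of receptor signalling, had 42, 41, 11 and 34 UMIs against 17, 57, 7 and 34, a log2 fold change of 1.47 ± 0.27 (edgeR adjusted p = 0.00947). As a share of UMIs, both were higher in all 4 libraries. Glrx, a thiol reductase, was not higher in Control 1, where it had 1 UMI against 2. Cd8-negative T cells were shallower, with medians of 4683, 7296, 2376 and 3894 UMIs per cell against 5136, 9170, 3250 and 4951 in Cd8-positive T cells, and the part of depth was not tested.

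**Figure D5:**
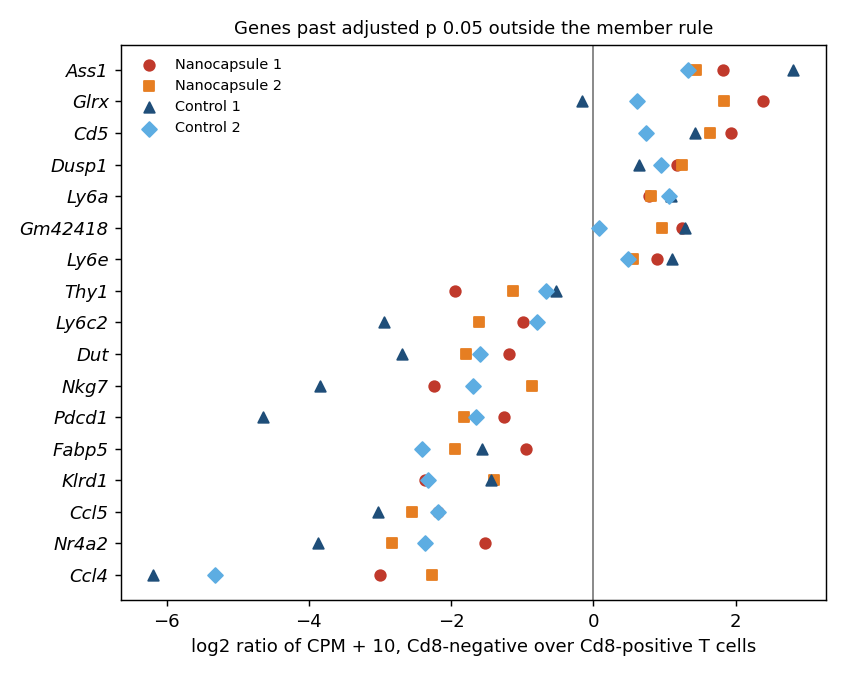
Log2 ratio of CPM plus 10 in Cd8-negative over Cd8-positive T cells, per library, for the 17 genes past an adjusted p of 0.05 that the rule did not use. Points left of 0 are lower in Cd8-negative T cells, and Glrx in Control 1 is the point on the other side of 0 from the rest of its gene.

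Leaving out 1 library changed which genes passed. Between 10 and 24 genes passed when each library was left out in turn, and 6 of the 19 passed without Nanocapsule 2 or without Control 2, 13 without Nanocapsule 1 and 17 without Control 1. Without barcodes over 20000 UMIs, 13 genes passed, of which 8 were among the 19, and 7 of 10 cytotoxic genes were then called lower. With DESeq2, 17 passed, of which 16 were among the 19.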

How the data were processed

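Single-cell RNA was measured in 4 tumour libraries. The authors deposited 1 matrix per library of raw UMI counts for 32285 genes and all barcodes. Per the labels' protocols the libraries were 10x Genomics single cell 3-prime v2. The submitters' processing notes name Cell Ranger 2.1.1 and mm10, but Cell Ranger 4 stands in the matrix headers, and which of them made the counts is not known. The members, states and 35 gene lists were chosen with earlier results of these data known, and 2 list genes, H2az1 and Mx1, were matched to no symbol.

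Cells are not replicates, so UMIs were summed per library and state and tested in R 4.3.3 with edgeR 4.0.16 (TMM, filterByExpr, robust quasi-likelihood test, Benjamini-Hochberg adjustment over all genes tested). SEs were derived from each log2 fold and its F statistic. Normalised CPM is scaled to UMIs of the tested genes. States entered where a library had at least 3 cells in each. Shares of cells with a UMI were the expected shares after thinning each cell to 1000 UMIs without replacement, and were compared by exact permutation over the 6 splits of 2 against 2 libraries, which cannot go below p = 0.33. Clopper-Pearson intervals (95%) and the limits given for a gene with no UMI (3 counts) reflect counting error alone.

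Named genes were the 10 largest rises and falls past an adjusted p of 0.05, up to 4 passing members of each list or otherwise its 2 most abundant, and Cd3e, Trac, Cd4, Foxp3 and Il7r; not all are described. Il2ra, Icos, Ccr7, Tcf7, Isg15 and Cd40lg between treatments, Ctla4, Ikzf2, Rps2 and Rpl8 between Foxp3 states, and genes given by detection alone were chosen after their values were seen. Coordinates come from release 21 of the mouse GENCODE annotation (GRCm38), matched by Ensembl ID for 32158 genes. Alternatives were DESeq2 1.42.0, RLE scaling, no low-count filter, other limits on barcodes, each library left out and a replicate block. No doublet caller was used. A comparison of naive-like states and some single genes are not reported here. The fits were tested on simulated data with known changes. Python 3.11.15 with scipy 1.17.1 was used for the rest.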

Additional observations from a re-analysis of the deposited data

How the results depend on the processing

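Limits of at least 3 receptor UMIs or at most 10% mitochondrial UMIs moved no count of calls and no direction. They could remove no Cd8-negative T cell, since all 62 had at least 3 receptor UMIs and the highest mitochondrial share was 3.66%. These limits are therefore no check on the calls within Cd8-negative T cells. Between treatments, where 13 genes passed, 0 passed with DESeq2 and 0 at a minimum of 2000 UMIs, 28 with RLE scaling, 6 without barcodes over 20000 UMIs, 7 without barcodes with 10 or more myeloid UMIs, and 0 to 34 when each library was left out. With the replicate block, 28 passed, including all 13. The numbers pair the libraries by name only: deviations from the group means correlated at -0.0647 over 1813 genes. Between Foxp3 states, where 46 genes passed, 2 passed with DESeq2, 6 at a minimum of 2000 UMIs, 18 (16 among the 46) over libraries with at least 1 cell in both states, 26 (8 among the 46) of that kind without barcodes over 20000 UMIs, and 10 (6 among the 46) without barcodes with 10 or more myeloid UMIs, taking libraries with at least 2 cells per state; the last 3 settings were chosen after seeing the data, as were the fit without Foxp3-detected cells and the thinned Cd8 reading. Against Cd8-positive T cells, 103 genes passed with no low-count filter, where 14056 genes were tested, and 10 to 24 when each library was left out. As log2 ratios of Nanocapsule over Control means, the share of passing barcodes ran from -1.26 to 1.39 over the libraries left out, the reverse at 1.39 being without Control 2. The Cd4 share ran from -1.08 to 1.17, the reverse at 1.17 being without Control 2, and was 0.19 unthinned. The share of T cells ran from -1.17 to -0.25 and the Foxp3 share from 0.48 to 3.87. The cause of these changes was not tested. Leaving out a library of the Foxp3 fit would leave 1 library and was not run, and neither was that fit at most 20000 UMIs with 3 cells per state. With 9 to 28 cells per library, a gene in few cells can be decided by 1 barcode.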
